A study of Mus musculus with 2 samples.

Results

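Fos, Fosb, Jun, Junb, Jund, Atf3, Egr1, Ier2, Dusp1 and Zfp36 are 10 genes of the AP-1 and immediate early response, chosen by name from the 31053 gene rows of a single-cell count table of mouse optic nerve macrophages and microglia. All 10 had a row, and all 10 had UMIs (unique molecular identifiers, 1 per captured transcript) in both libraries. The injured library came from optic nerves taken 2 weeks after a crush made at 8 weeks of age. The uninjured library came from nerves with no treatment. The sources used here give both as from wild-type 129S1/SvlmJ mice of both sexes, 10 weeks old at collection. Both were made with the 10x Genomics 3' droplet chemistry from digested and triturated nerve. The sex of the cells was not read from the counts, in which Xist had no UMI in either library. There is 1 library per condition, and the sources used here do not say how many mice gave each, so no test was made. Every interval of a level or ratio below allows for counting error alone. Intervals of shares of cells take the cells of 1 library as independent draws, and no interval covers differences between mice.

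From injured nerve there were 727 cells with 3697992 UMIs, and from uninjured nerve 51 cells with 87499 UMIs, so the uninjured values are the less precise. A single UMI weighs far more there, and 0 UMIs allow up to 34.3 CPM (the unit of all levels here, UMIs scaled so that each total is equal) in the uninjured against 0.811 CPM in the injured library. No cell barcode was shared. Cells were grouped by depth and by Malat1, a nuclear noncoding RNA. Deep cells had at least 5000 UMIs (144 injured and 4 uninjured), Malat1-rich shallow cells had Malat1 at 1% of UMIs or more (91 and 17), and the remaining shallow cells were Malat1-poor (492 and 30). At the divide, 59 injured and 1 uninjured shallow cells had Malat1 between 0.5 and 2% of UMIs. All 18 microglia and macrophage markers were seen in both libraries. Of the 4 uninjured deep cells, 1 had 10194 of 11100 UMIs from haemoglobin genes, no UMI of those macrophage markers and none of the 10 genes. It makes up much of the uninjured deep depth, and the summed values of deep cells are also given without it. Another 5 injured cells carried T cell receptor or Cd3 transcripts and no C1qa, and they held 361 UMIs of the 10 genes in 21770 UMIs.

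Immediate early genes are transcribed within minutes of a stimulus, without new protein synthesis, and their messengers are short-lived. Fos and Fosb proteins pair with Jun, Junb or Jund to form AP-1, a dimer that binds DNA, and Jun proteins can also pair with each other or with Atf3. MAP kinases drive the response, Dusp1 dephosphorylates those kinases and Zfp36 shortens the life of AU-rich messengers, so both act as brakes. Macrophages and microglia are known to induce these genes on activation and on dissection and digestion of tissue.

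The promoters of Fos, Dusp1, Zfp36 and Jun are shown because the first 3 were closely correlated from cell to cell and Jun had one of the lowest injured over uninjured ratios. Each is the 250 bases before the gene's start in RefSeq, 5′ to 3′ on the gene's own strand, on GRCm38.p6, and 8 of the 10 genes had an entry. Capitals mark the letters that were searched on both strands. They are the cAMP response element TGACGTCA and its part TGACG, the AP-1 element TGANTCA, the element TGACATCA, the EGR element GCGNGGGCG, the CArG box that serum response factor binds, and the TATAAA box. TGACG lies within TGACGTCA, so these matches overlap.
Fos, chr12:85473640-85473889, plus strand: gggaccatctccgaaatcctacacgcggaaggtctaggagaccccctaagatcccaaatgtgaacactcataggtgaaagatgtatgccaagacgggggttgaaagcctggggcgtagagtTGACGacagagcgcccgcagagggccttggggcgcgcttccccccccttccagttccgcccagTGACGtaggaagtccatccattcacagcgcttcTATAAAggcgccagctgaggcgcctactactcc
Dusp1, chr17:26508473-26508722, minus strand: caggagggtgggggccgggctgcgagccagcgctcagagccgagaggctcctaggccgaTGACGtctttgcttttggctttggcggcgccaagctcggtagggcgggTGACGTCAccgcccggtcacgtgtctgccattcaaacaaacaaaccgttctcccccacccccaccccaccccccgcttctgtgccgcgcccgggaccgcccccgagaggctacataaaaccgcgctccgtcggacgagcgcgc
Zfp36, chr7:28379229-28379478, minus strand: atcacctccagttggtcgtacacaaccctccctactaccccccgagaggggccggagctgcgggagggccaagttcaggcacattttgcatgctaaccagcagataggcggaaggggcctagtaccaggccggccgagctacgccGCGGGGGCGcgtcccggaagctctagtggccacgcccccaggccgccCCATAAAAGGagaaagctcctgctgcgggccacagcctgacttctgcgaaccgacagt
Jun, chr4:95052223-95052472, minus strand: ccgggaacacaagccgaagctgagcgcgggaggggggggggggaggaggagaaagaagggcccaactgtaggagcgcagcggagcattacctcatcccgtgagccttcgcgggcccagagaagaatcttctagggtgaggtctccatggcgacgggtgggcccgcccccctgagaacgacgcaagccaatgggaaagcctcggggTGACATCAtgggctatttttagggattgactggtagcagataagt

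TGACG was found in 5 of the 8 promoters (Fos, Fosb, Junb, Atf3 and Dusp1) and in 17.8% of all 32851 promoters of the same length. The full TGACGTCA was found in Dusp1, with its first base 143 bases before the start, and in 1.55% of all promoters. The CArG box of Zfp36 began 58 bases before the start, and 1.47% of all promoters held one. GCGNGGGCG was found in Fosb and Zfp36 and in 4.70% of all promoters. TGACATCA was found in Jun and in 2.93%, and TATAAA in Fos and in 12.4%. TGANTCA was not in these windows of the 8 genes, and 6.75% of all promoters held it. A match of letters describes the sequence and does not show that a factor binds there.

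By the GENCODE vM21 annotation on the mm10 assembly, Fos lies at chr12:85473890-85477273, Fosb at chr7:19302696-19310051, Jun at chr4:95049034-95052222, Junb at chr8:84974484-84978718 and Jund at chr8:70698949-70700616. Atf3 lies at chr1:191170296-191218039, Ier2 at chr8:84661331-84662852, Dusp1 at chr17:26505590-26562128, Zfp36 at chr7:28376784-28380253 and Egr1 at chr18:34859823-34864984. The windows shown for Dusp1 and Zfp36 lie inside these spans, since the 2 annotations begin those genes at different places. Dusp1 overlaps 2 other annotated genes on its own strand, AC122252.4 and AC122252.1, so its count is the least certain of the 10. Whether the counting used strand is not stated in the sources read here, and Jun, Junb, Jund, Atf3, Dusp1 and Zfp36 each have an annotated gene on the opposite strand.

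The first question was whether the set differed between injured and uninjured nerve in whole libraries. The summed level of the 10 genes was 7362 CPM in the injured library (95% exact Poisson interval 7274 to 7450, 27223 UMIs) and 13074 CPM in the uninjured library (12328 to 13855, 1144 UMIs). The injured over uninjured ratio was 0.563, with an exact conditional binomial interval of 0.531 to 0.598. A gene was called lower or higher at a 1.5-fold difference with 10 CPM added to both levels. By that rule 6 of the 10 genes were lower in the injured library (Fosb, Jun, Junb, Jund, Egr1 and Zfp36), against 21.8% of the 4021 genes compared, and none of the 10 was higher, against 32.8%. Without the uninjured cell with most UMIs of the set the count was 5. With each gene's own top uninjured cell left out it was 4 (Jun, Jund, Egr1 and Zfp36). No share over all genes is given with these cells left out. The median log2 ratio of the 10 genes was -0.74 and that of all genes compared was 0.17. Median mitochondrial share was 1.10% of UMIs in injured and 5.93% in uninjured cells, and its part in the result was not tested. Genes of the set are linked in expression and share the same 2 libraries, so the count of 6 is not 6 independent observations.

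Among the Fos proteins, Fos stood at 1539 CPM in the injured library (1499 to 1580, 5692 UMIs) and 1566 CPM in the uninjured library (1315 to 1851, 137 UMIs), a ratio of 0.983 (0.830 to 1.17). Fosb stood at 319 CPM in the injured library (301 to 338, 1179 UMIs) and 583 CPM in the uninjured library (434 to 766, 51 UMIs), a ratio of 0.547 (0.413 to 0.739). The 2 genes had different ratios, with level intervals that overlapped for Fos and did not for Fosb. The uninjured Fosb value rested on few cells, since 9 of 51 cells had a Fosb UMI and 2 of them held most of the UMIs. Without the uninjured cell with most Fosb UMIs, which had 21 of 51, the ratio was 0.828 and Fosb was no longer called. After each cell was thinned to 500 UMIs, the Fosb ratio was 1.47 with a wide interval of 0.611 to 4.62.

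All 3 Jun genes were lower in the injured library. Jun stood at 649 CPM in the injured library (623 to 675, 2400 UMIs) and 2297 CPM in the uninjured library (1991 to 2638, 201 UMIs), a ratio of 0.283 (0.245 to 0.328). Jund, a constitutive Jun protein in many tissues, stood at 759 against 2057 CPM, from 2805 and 180 UMIs, a ratio of 0.369 (0.317 to 0.431). Junb stood at 1785 against 2777 CPM, from 6601 and 243 UMIs, a ratio of 0.643 (0.565 to 0.734). Jun and Jund lay well past the 1.5-fold rule, and Junb lay just past it. Without the uninjured cell with most UMIs of each gene, the ratios were 0.338 for Jun, 0.431 for Jund and 0.766 for Junb, so that Junb alone of the 3 lost its call.

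Egr1, a zinc finger transcription factor and an early target of serum response factor, stood at 214 CPM in the injured library (200 to 230, 792 UMIs) and 686 CPM in the uninjured library (523 to 883, 60 UMIs), a ratio of 0.312 (0.240 to 0.413). Atf3, a stress-induced factor that can repress transcription, stood at 746 against 800 CPM, from 2760 and 70 UMIs, a ratio of 0.933 (0.736 to 1.20). Egr1 kept its call without the uninjured cell with most of its UMIs, at a ratio of 0.378. In that same comparison Atf3 moved to 1.64, since a single uninjured cell held 33 of its 70 UMIs. Ier2, an early gene that codes for a nuclear protein, stood at 376 against 411 CPM, from 1392 and 36 UMIs, a ratio of 0.915 (0.658 to 1.31).

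The 2 brakes of the response stood apart from each other. Zfp36, which codes for tristetraprolin, stood at 441 CPM in the injured library (420 to 463, 1632 UMIs) and 1497 CPM in the uninjured library (1252 to 1777, 131 UMIs), a ratio of 0.295 (0.247 to 0.355). Dusp1, the MAP kinase phosphatase, stood at 533 CPM in the injured library (509 to 557, 1970 UMIs) and 400 CPM in the uninjured library (279 to 556, 35 UMIs), a ratio of 1.33 (0.954 to 1.92). Dusp1 was the only one of the 10 genes with a whole-library ratio above 1, and its interval included 1. Without the uninjured cell with most UMIs of each gene, the ratios were 0.330 for Zfp36 and 1.54 for Dusp1. Zfp36 UMIs were also the most spread over uninjured cells, with 6 of the 24 positive cells needed to hold most of them.

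**Figure D1:**
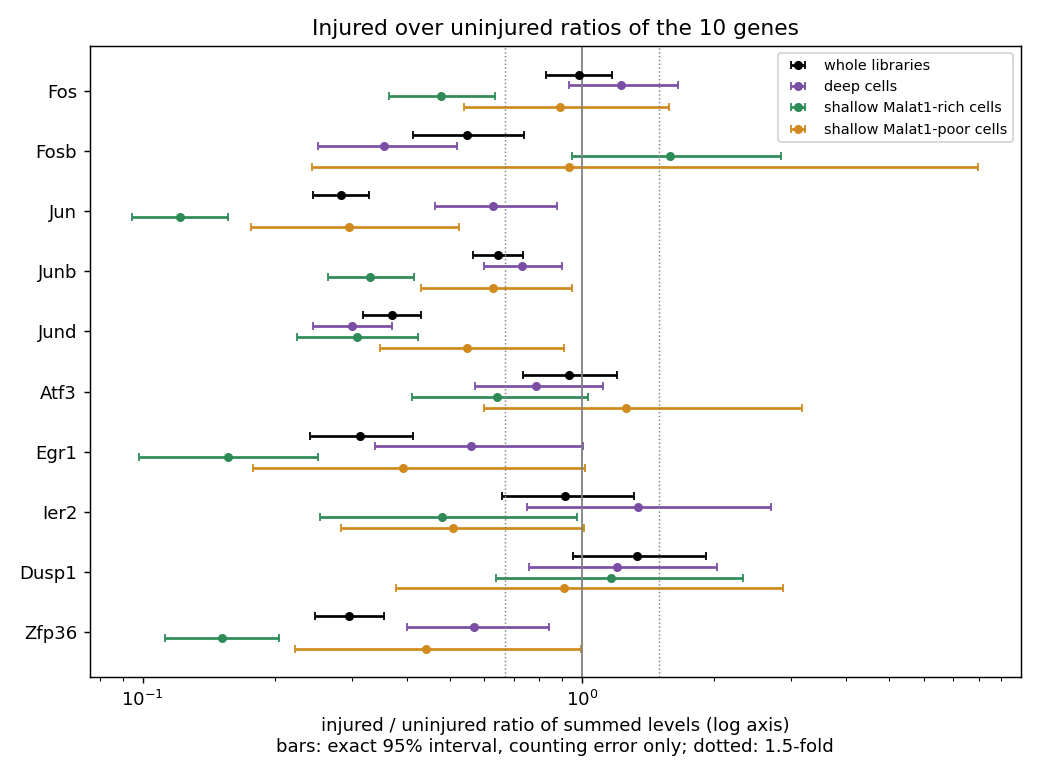
Injured over uninjured ratio of each of the 10 genes (log axis) in whole libraries and in the 3 kinds of cell, with exact 95% intervals that cover counting error only and dotted lines at a 1.5-fold difference. Jun, Zfp36 and Egr1 sit furthest to the left in shallow Malat1-rich cells, at 0.122, 0.152 and 0.157, and the Fosb points lie on both sides of 1, at 0.355 in deep and 1.59 in shallow Malat1-rich cells.

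The libraries differ in depth and in the kinds of cell they hold, so each kind of cell was compared on its own. Deep cells took 79.9% of injured UMIs and 41.1% of uninjured UMIs. In deep cells the summed level was 8211 CPM in the injured library (8108 to 8315, 24248 UMIs) and 12161 CPM in the uninjured library (11047 to 13356, 437 UMIs), a ratio of 0.675 (0.614 to 0.744). By the 1.5-fold rule 5 of the 10 genes were lower (Fosb, Jun, Jund, Egr1 and Zfp36), against 15% of genes compared, and none was higher, against 49.8%. The median log2 ratio was 0.58 over all genes and -0.56 over the 10. With log2 ratios centred on the median of all genes, Junb and Atf3 were also called lower, 7 of 10 against 29.4% of genes compared, and none was higher, against 37%.

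The uninjured side of that comparison was 4 cells, and they differed widely. The haemoglobin cell had none of 11100 UMIs from the 10 genes, which allows a summed level of up to 270 CPM in it. The other 3 had 155 of 9567, 93 of 8863 and 189 of 6406 UMIs from them, or 16202, 10493 and 29504 CPM. Genes within these cells also differed, with Fosb at 21, 3 and 9 UMIs, Jund at 43, 21 and 35, Atf3 at 3, 2 and 33, and Egr1 at 1, 0 and 14. The summed ratio was 0.467 (0.425 to 0.514) without the haemoglobin cell and 0.978 (0.863 to 1.11) without the cell of 189 UMIs, so a single uninjured cell decides it. Jund was the steadiest of the called genes, at 825 against 2755 CPM, a ratio of 0.299 (0.245 to 0.370), and 0.388 (0.298 to 0.516) without the cell with most Jund. Without the haemoglobin cell, Junb at 0.505 and Atf3 at 0.544 were called lower beside those 5, which then ranged from 0.207 for Jund to 0.435 for Jun. Without the uninjured cell with most UMIs of the gene, the ratio was 0.717 for Fosb, 0.868 for Jun, 0.831 for Zfp36 and 6.91 for Egr1, the last against 1 UMI (interval 1.24 to 273). In the same comparison Atf3 moved from 0.787 to 4.91 (2.10 to 15.1), with 33 of its 38 uninjured UMIs in that cell, and Junb from 0.730 to 1.32 (0.985 to 1.81). Jund was then the only gene of the 10 still called lower, and 5 were called higher (Fos, Atf3, Egr1, Ier2 and Dusp1). Leaving out its top cell raised the ratio of each of the 10 genes. Calls with a cell left out have no share over all genes beside them here. With no cell left out, 49.8% of all genes compared were higher in deep cells. Fos stood at 1744 against 1419 CPM in deep cells, a ratio of 1.23 (0.933 to 1.65), at 0.849 (0.645 to 1.14) without the haemoglobin cell, and at 2.05 (1.37 to 3.24) without the uninjured cell with 28 of the 51 Fos UMIs.

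The widest difference was in shallow Malat1-rich cells, where the summed level was 7371 CPM in the injured library (6976 to 7783, 1299 UMIs) and 22762 CPM in the uninjured library (20951 to 24687, 583 UMIs). The ratio was 0.324 (0.293 to 0.358), or 3.09-fold lower, and 0.366 without the uninjured cell with most UMIs of the set. By the 1.5-fold rule 8 of the 10 genes were lower, all except Fosb and Dusp1, against 30.7% of genes compared. Fosb alone was higher, against 36.4%. The median log2 ratio was -1.33 over the 10 genes and 0.02 over all genes.

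Jun was at 675 CPM in injured Malat1-rich cells (559 to 808, 119 UMIs) and 5544 CPM in uninjured ones (4670 to 6535, 142 UMIs), a ratio of 0.122 (0.0947 to 0.156). The 17 uninjured cells thus gave more Jun UMIs than the 91 injured cells, of which 1 cell held 38.7% of the injured Jun UMIs. Zfp36 was at 539 against 3553 CPM, from 95 and 91 UMIs, a ratio of 0.152 (0.113 to 0.205). Egr1 was at 233 against 1484 CPM, from 41 and 38 UMIs, a ratio of 0.157 (0.0984 to 0.251). Levels of Jun, Zfp36 and Egr1 did not overlap in their intervals, and without the uninjured cell with most of each gene the ratios were 0.149, 0.175 and 0.190. Jund was at 732 against 2382 CPM, a ratio of 0.307 (0.225 to 0.424), and Junb at 1481 against 4490 CPM, a ratio of 0.330 (0.264 to 0.414). Fos was at 1305 against 2733 CPM, from 230 and 70 UMIs, a ratio of 0.478 (0.364 to 0.633). A single uninjured cell had 34 of those 70 Fos UMIs, and without it the Fos ratio was 0.833. Atf3, at 624 against 976 CPM, had a ratio of 0.639 (0.411 to 1.03) and 0.956 without its top uninjured cell, so that the calls of Fos and Atf3 each rested on 1 cell. Ier2, at 244 against 508 CPM from 43 and 13 UMIs, had a ratio of 0.481 (0.254 to 0.974) and 0.639 without its top cell.

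Fosb went the other way in Malat1-rich cells, at 993 CPM in the injured library (851 to 1152, 175 UMIs) and 625 CPM in the uninjured library (357 to 1014, 16 UMIs), a ratio of 1.59 whose interval of 0.952 to 2.84 included 1. After thinning to 500 UMIs, 33.0% of the injured cells showed a Fosb UMI (exact binomial interval 23.5 to 43.6), against 11.8% of the uninjured cells (1.46 to 36.4). For Zfp36 the thinned shares were 22.0% (14.0 to 31.9) against 82.4% (56.6 to 96.2). For Jun they were 13.2% (7.0 to 21.9) against 70.6% (44.0 to 89.7). Unthinned, the shares were 54.9 and 29.4% for Fosb, 49.5 and 88.2% for Zfp36 and 37.4 and 82.4% for Jun, at median depths of 1668 and 1220 UMIs. Dusp1 was seen in 23.1% and 23.5% of thinned cells, at 545 against 469 CPM, a ratio of 1.16 (0.636 to 2.33). These genes are active in many cell types, so no cell type in the table serves as a negative control for free RNA, apart from the single haemoglobin cell with none of their UMIs.

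**Figure D2:**
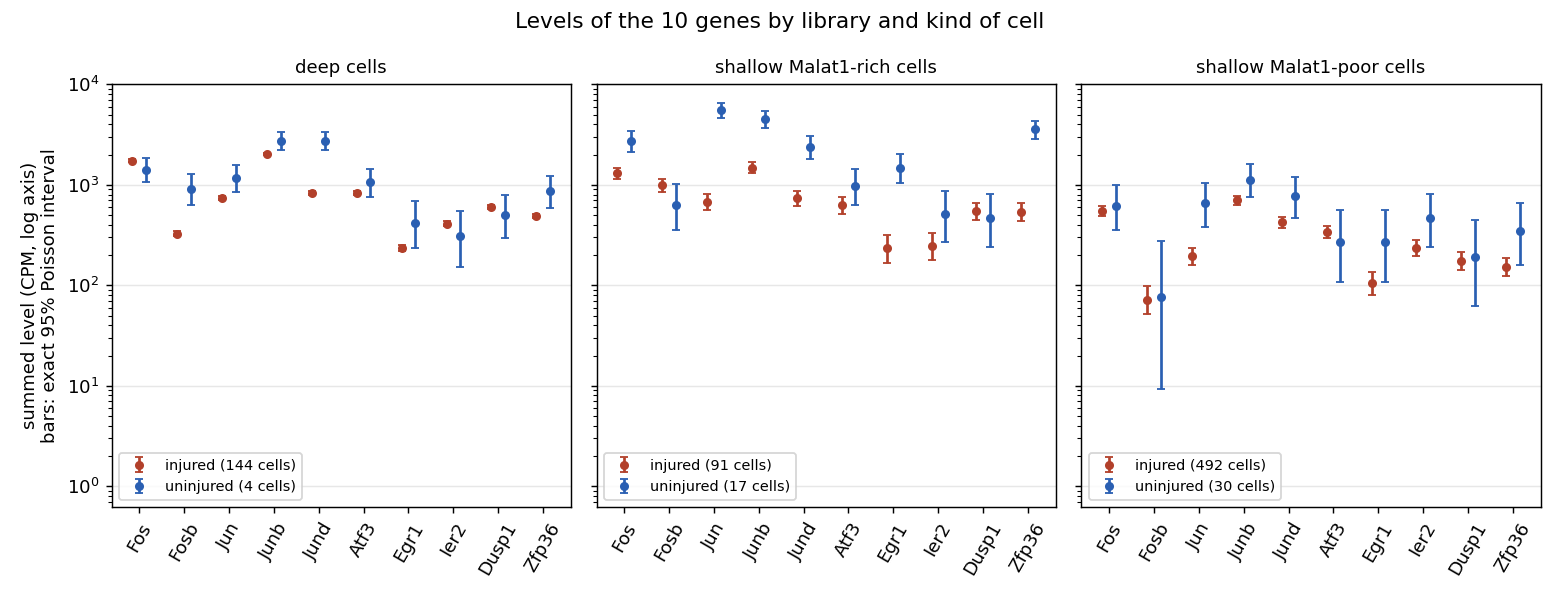
Summed level of each gene (CPM, log axis) in the injured and uninjured libraries within deep, shallow Malat1-rich and shallow Malat1-poor cells, with exact 95% Poisson intervals. In the middle panel the uninjured points of Jun, Zfp36 and Egr1 stand at 5544, 3553 and 1484 CPM above injured points of 675, 539 and 233 CPM, and only Fosb and Dusp1 have the injured point above the uninjured one.

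The 17 uninjured Malat1-rich cells were mostly alike in carrying the set. Their summed levels ran from 0 to 66969 CPM with a median of 17628 CPM, against 0 to 43331 CPM and a median of 4939 CPM in the 91 injured cells. Of the 17 cells, 13 had UMIs of at least 5 of the 10 genes and 1 had none. The cell with the highest level had 59 of 881 UMIs from the set, among them 20 of Jun, 15 of Zfp36 and 14 of Junb but none of Fos. The cell with the most UMIs of the set had 121 of 2646, among them 38 of Jun and 34 of Fos. High cells thus differed in which genes they carried, and 6 of the 17 had no Fos UMI.

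Other measures moved with the same contrast. Median mitochondrial share was 10.7% of UMIs in injured and 3.11% in uninjured Malat1-rich cells, and with cells of 5% or more left out of both, the summed ratio was 0.358 (0.308 to 0.417). Microglia and macrophage markers summed to 21103 CPM in injured cells, with none of 18 at 0, and 37442 CPM in uninjured cells, with Mrc1 at 0. Oligodendrocyte markers summed to 2780 and 7926 CPM, with Opalin at 0 in the uninjured cells. Astrocyte markers summed to 579 and 3514 CPM, with Gfap, Aqp4, Aldoc, Slc1a2 and Gja1 at 0 in the uninjured cells. The heat shock genes Hspa1a and Hspa1b, near-identical copies whose reads can be shared between them, had ratios of 0.0147 and 0.00881 there. The part of these measures in the result was not tested.

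In shallow Malat1-poor cells, levels of the set were low in both libraries. The sum was 2947 CPM in the injured library (2807 to 3091, 1676 UMIs) and 4778 CPM in the uninjured library (3974 to 5697, 124 UMIs), a ratio of 0.617 (0.514 to 0.746). By the 1.5-fold rule 6 of the 10 were lower (Jun, Junb, Jund, Egr1, Ier2 and Zfp36), against 19.8% of genes compared, and none was higher, against 47.8%. Centred on the median log2 ratio of all genes, which was 0.49, Fos and Dusp1 were also called lower, 8 of 10 against 34.2%, and none was higher, against 37.7%. Jun stood at 193 against 655 CPM, from 110 and 17 UMIs, a ratio of 0.295 (0.176 to 0.525). Zfp36 stood at 153 against 347 CPM, from 87 and 9 UMIs, a ratio of 0.441 (0.222 to 0.997). Fos, at 549 against 617 CPM, and Atf3, at 339 against 270 CPM, had ratios of 0.890 (0.539 to 1.58) and 1.26 (0.599 to 3.17). The uninjured counts were 2 to 29 UMIs a gene, and without the top uninjured cell of each, Junb was at 0.690 and Jund at 0.667, and neither was called. Median mitochondrial share was 0.503% in injured and 8.11% in uninjured Malat1-poor cells. Oligodendrocyte markers summed to 5243 CPM in injured and 19229 CPM in uninjured Malat1-poor cells. The part of both measures in the result was not tested.

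Jun, Jund, Egr1 and Zfp36 were lower by the rule in whole libraries and in all 3 kinds of cell, although 1 uninjured cell decided the deep-cell calls of Jun, Egr1 and Zfp36 and the Malat1-poor call of Jund. The classes share no cells with each other, but each class shares its 2 libraries with the rest. Whole libraries are the sum of these classes, so their calls add no separate evidence. The share of all genes compared that met the rule every time was not counted, so this recurrence has no background to set it against.

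Within each library the set also differed between kinds of cell. In the injured library the summed level in deep cells was 2.79 times that in Malat1-poor cells (2.65 to 2.93), and the level in Malat1-rich cells was 0.898 times that in deep cells (0.848 to 0.949). In the uninjured library the level in Malat1-rich cells was 1.87 times that in deep cells (1.65 to 2.12) and 4.76 times that in Malat1-poor cells (3.92 to 5.83). From highest to lowest, the summed level ran from uninjured Malat1-rich to uninjured deep, injured deep, injured Malat1-rich, uninjured Malat1-poor and injured Malat1-poor cells. No interval, for counting error only, overlapped its neighbour. The order of the 2 deep groups rested on 1 uninjured cell. Without the one with most UMIs of the set, the injured over uninjured ratio in deep cells was 0.978 (0.863 to 1.11). Without the haemoglobin cell the uninjured deep level was 17595 CPM (15984 to 19325), in the same place in that order, and the uninjured Malat1-rich level was 1.29 times it (1.14 to 1.47).

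Single genes followed that order in part. Jun in uninjured cells was 4.74 times as high in Malat1-rich as in deep cells (3.34 to 6.86), Zfp36 4.12 times (2.71 to 6.41) and Egr1 3.55 times (1.91 to 6.96). Without the haemoglobin cell these ratios were 3.28 (2.31 to 4.74), 2.85 (1.87 to 4.43) and 2.46 (1.32 to 4.81). In injured cells the same ratios were 0.918 for Jun, 1.10 for Zfp36 and 0.994 for Egr1, each with an interval that included 1. Fosb had the reverse pattern, 3.05 times as high in Malat1-rich as in deep injured cells (2.58 to 3.58) and 0.680 times in uninjured cells (0.350 to 1.27). Without the haemoglobin cell the uninjured ratio was 0.470 (0.242 to 0.879). The order of Fosb over the 6 groups was injured Malat1-rich, uninjured deep and uninjured Malat1-rich, at 993, 918 and 625 CPM with overlapping neighbours, then injured deep at 326 CPM and both Malat1-poor groups at 77.1 and 72.1 CPM. Without the haemoglobin cell, uninjured deep cells came first at 1329 CPM (915 to 1866). A single cell held 21 of their 33 Fosb UMIs. Ier2 was the flattest, from 508 CPM in uninjured Malat1-rich to 236 CPM in injured Malat1-poor cells, with each neighbour overlapping the next. Dusp1 was also flat outside Malat1-poor cells, with levels from 469 to 601 CPM in the 4 other groups. Without the haemoglobin cell, Dusp1 in uninjured deep cells stood above that range at 725 CPM, with a wide interval of 430 to 1145.

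**Figure D3:**
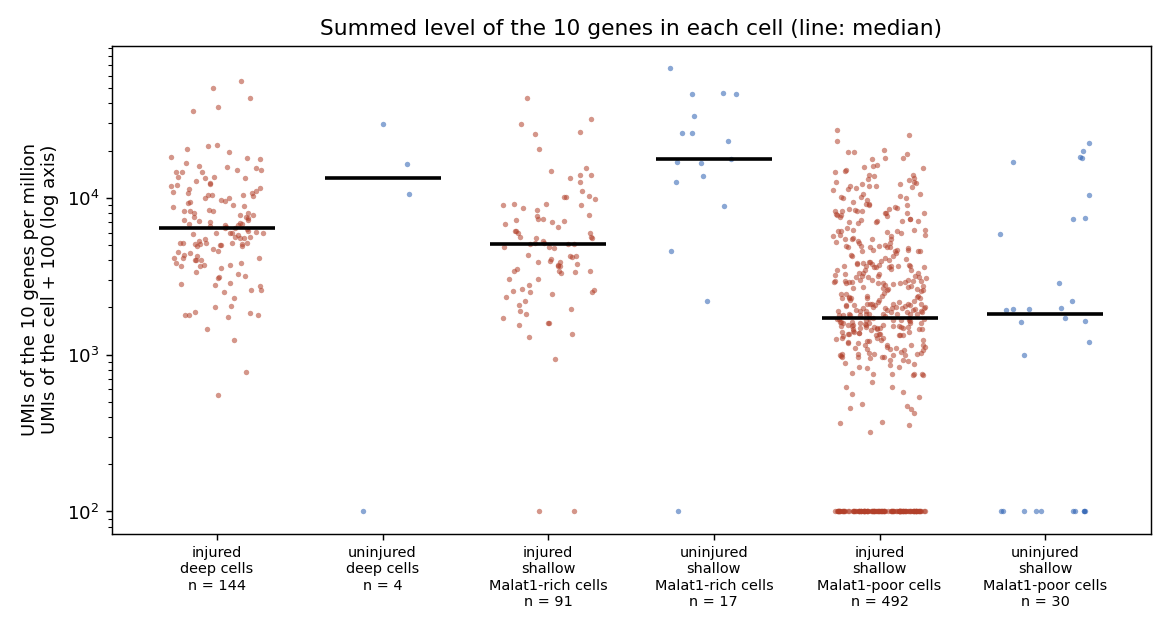
Summed level of the 10 genes in each cell (CPM within the cell, with 100 added so that cells at 0 can be drawn, log axis) by library and kind of cell, with black lines at the medians. The uninjured Malat1-rich cells sit highest, with a median of 17628 CPM, and the Malat1-poor cells of both libraries include many cells at 0.

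Depth itself was followed in finer steps. In injured cells the summed level was 3582 CPM in cells under 600 UMIs, 3435 CPM from 600 to 1000, 4225 CPM from 1000 to 5000, 11178 CPM from 5000 to 15000 and 7715 CPM above. In uninjured cells it was 10226, 9903, 15978 and 12161 CPM over the first 4 steps, with no cell above 15000 UMIs. Uninjured cells were the higher in the 3 shallow steps, and between 5000 and 15000 UMIs the intervals of 10862 to 11502 and 11047 to 13356 CPM overlapped. Without the haemoglobin cell the uninjured interval in that step was 15984 to 19325 CPM, above the injured one. In that step Jun stood at 1203 CPM in 45 injured cells and 1169 CPM in 4 uninjured cells (1691 CPM without the haemoglobin cell), and Fos at 2246 and 1419 CPM (2053 CPM without it). Over the 99 injured cells above 15000 UMIs, Jun stood at 657 CPM and Fos at 1660 CPM.

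The balance within families shifted as well. Of the UMIs of the 3 Jun genes, Jun held 20.3% in the injured library (19.6 to 21.1) and 32.2% in the uninjured library (28.6 to 36.0), and Junb held 55.9% and 38.9%. In Malat1-rich cells the Jun share was 23.4% (19.8 to 27.3) against 44.7% (39.1 to 50.3). In deep cells it went the other way, at 20.6% (19.8 to 21.4) against 17.5% (12.9 to 22.9), with intervals that overlapped. In deep cells Jund held 23.1% (22.3 to 23.9) of injured and 41.3% (35 to 47.8) of uninjured UMIs of the Jun genes, and Junb 56.3% and 41.3%. Of the UMIs of Fos and Fosb, Fosb held 15.8% in injured deep cells (14.8 to 16.7) and 39.3% in uninjured ones (28.8 to 50.5), and the uninjured share ran from 24.5 to 56.6% when 1 cell at a time was left out. In Malat1-rich cells the order turned, with 43.2% in injured (38.3 to 48.2) and 18.6% in uninjured cells (11 to 28.4), the last from 11.4 to 30.8% with 1 cell left out. Capture differs between messengers, so the shares are compared between libraries and not between genes.

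The number of genes of the set seen together in a cell was compared after thinning each cell to 500 UMIs, which left out 2 uninjured cells. Of the injured cells 68.6% showed at least 1 of the 10 (65.1 to 72.0), and of the uninjured cells 71.4% (56.7 to 83.4). Of the injured cells 8.39% showed at least 5 (6.48 to 10.6), and of the uninjured cells 34.7% (21.7 to 49.6). The share of cells with any gene of the set was thus close in these 2 libraries while the share with 5 or more was not. These intervals take the cells of 1 library as independent draws, so they do not measure spread between mice. In Malat1-rich cells the shares with 5 or more were 13.2% (7.0 to 21.9) and 58.8% (32.9 to 81.6). In Malat1-poor cells the shares were 4.47% (2.82 to 6.69) and 17.9% (6.06 to 36.9), whose intervals overlapped. Among deep cells they were 27 of 144 injured and 2 of 4 uninjured cells.

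**Figure D4:**
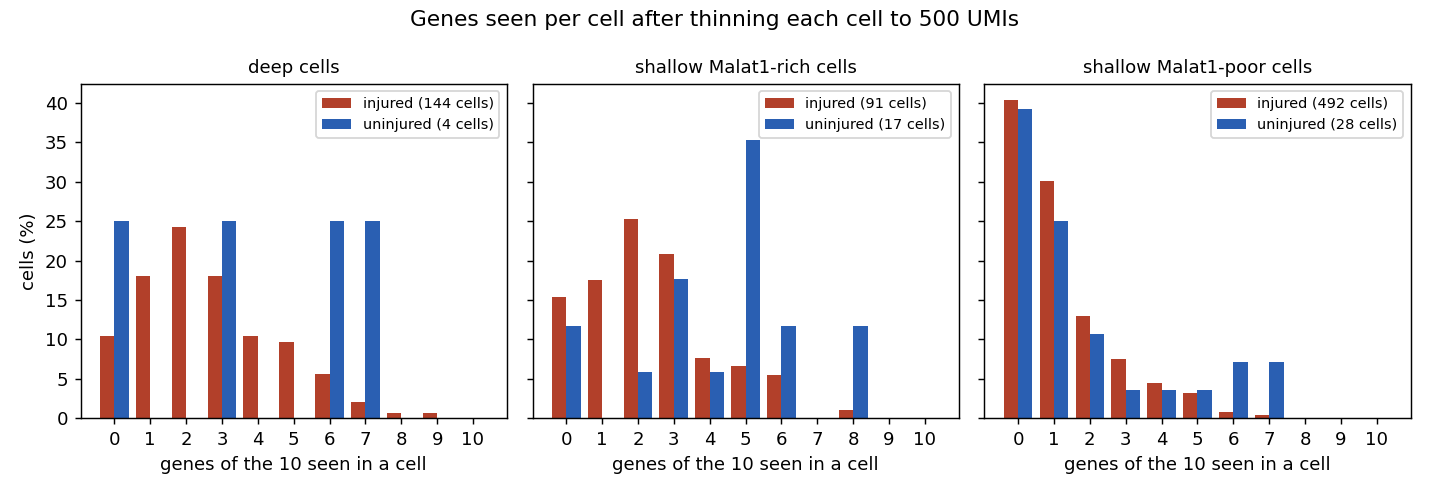
Share of cells (%) by the number of the 10 genes seen after thinning each cell to 500 UMIs, in injured and uninjured cells of each kind. In the middle panel injured cells peak at 2 genes and uninjured cells at 5 genes, and 13.2% of injured and 58.8% of uninjured Malat1-rich cells had 5 or more.

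Coexpression was described over the 144 deep injured cells, where the counts are least sparse. Spearman's rho of log2 CPM per cell was above 0 for all 45 pairs of the 10 genes, with a median of 0.41. The median over all pairs of 8142 genes was 0.026. Those genes were seen in at least 10% of these cells and were not matched to the 10 in level. The 10 were seen in 43.8% (Egr1) to 99.3% (Junb) of these cells. Fos and Zfp36 had the highest rho at 0.61, Fos and Dusp1 reached 0.60, Jun and Jund 0.60, Junb and Ier2 0.57, Dusp1 and Zfp36 0.56 and Jun and Egr1 0.56. Atf3 and Ier2 had the lowest at 0.16. By the median rho with the other 9 genes, Jun was the most closely tied at 0.48 and Atf3 the least at 0.30. Cells of 1 library share its preparation and differ in depth, and the summed level of the set had a rho of 0.087 with depth, 0.037 with mitochondrial share and 0.25 with Malat1 share. The median pairwise rho was 0.52 over the deep cells of at most 15000 UMIs and 0.36 after thinning each deep cell to 5000 UMIs.

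In 91 injured Malat1-rich cells the median rho was 0.25, against 0.023 over all gene pairs, and Jund with Atf3 and Jun with Jund had the highest values at 0.45 and 0.43. Junb stood apart there from the rest of the set, with a median rho of 0.064 with the other 9 genes, while the other medians ran from 0.21 to 0.34. In 492 injured Malat1-poor cells the median was 0.18, against 0.038 over all pairs, and Fos with Junb was highest at 0.37. Counts in both shallow groups are sparse, so these values are not set against those of deep cells. In the 17 uninjured Malat1-rich cells the pairs ranged from -0.33 for Fosb with Junb to 0.72 for Junb with Jund, and Jun with Egr1 reached 0.69. Correlations over so few cells are unstable and are given as values only.

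**Figure D5:**
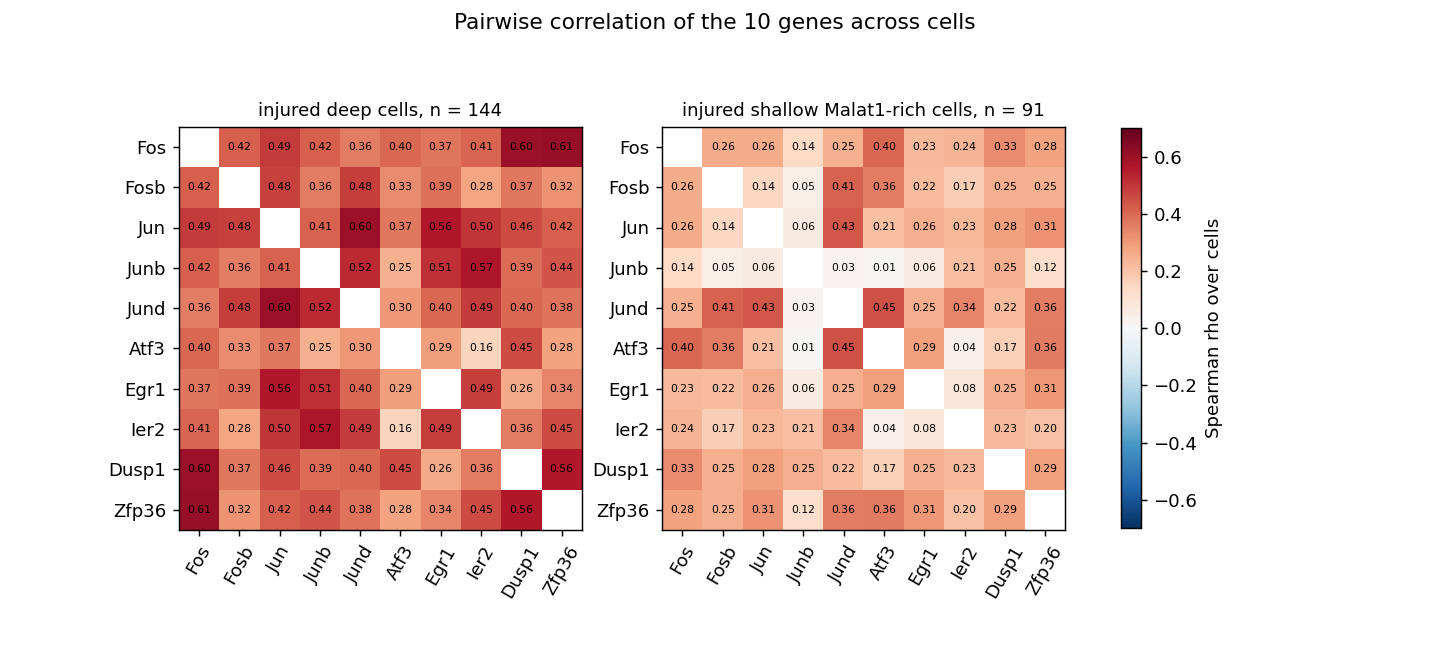
Spearman's rho between each pair of the 10 genes over 144 injured deep cells (left) and 91 injured shallow Malat1-rich cells (right), with colour from blue below 0 to red above 0. All 45 pairs lie above 0 in both panels, and the Junb row is pale on the right, where its median is 0.064.

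Deep injured cells were uneven in the set. Their summed level ran from 450 to 55296 CPM with a median of 6294 CPM, and quartiles at 4013 and 10372 CPM. The 15 cells with most UMIs of the set held 24.1% of its UMIs and 8.17% of the deep injured depth. Egr1 was the most concentrated, with no UMI in 81 of 144 cells and 54.4% of its UMIs in the 15 cells with most of them. Jun and Ier2 followed, with 40.3 and 42.6% in their top 15 cells, and Junb was the most even at 23.5%, with 1 cell of 144 at 0. The deep injured cells thus included cells with many UMIs of the set beside cells with few.

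The genes outside the set whose level followed its sum most closely over the 144 deep injured cells were Nfkbiz at a rho of 0.67, Ier5 at 0.65, Btg2 at 0.64, Gadd45b at 0.62, Csrnp1 at 0.58, Nfkbia at 0.57, Pim1 at 0.53 and Ddx5 at 0.53, among 8142 genes with a median of 0.035. The first 6 are on the list of other immediate early genes. Nfkbiz and Nfkbia code for members of the IkB family, Btg2 for an antiproliferative protein and Gadd45b for a stress-response protein. Over the 91 injured Malat1-rich cells the 8 were Btg2 at 0.49, Ddx3x at 0.45, Ppp1r15a at 0.44, Kdm3a at 0.44, Lyn at 0.42, Ddx5 at 0.42, Sat1 at 0.42 and Ier3 at 0.41, among 2574 genes with a median of 0.038. Btg2 and Ddx5 were named in both. After thinning, Btg2 stood at 0.28 and Ddx5 at 0.44 in Malat1-rich cells, and Kdm3a at -0.0012. The others of the 8 also fell, Ddx3x to 0.31, Ier3 to 0.30, Sat1 to 0.21, Ppp1r15a to 0.20 and Lyn to 0.19. Thinned values of the 10 genes themselves ran from 0.064 for Egr1 to 0.34 for Fos.

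Related genes were followed by list in whole libraries, keeping genes with UMIs in 5% or more of the cells in either library. Over all 6680 genes that passed this filter, 25.3% were lower and 30.3% higher, with a median log2 ratio of 0.09. Of 17 other AP-1 subunits, 14 passed, 1 was higher and 6 were lower, with a median log2 ratio of -0.31. Atf2 had 59 and 7 UMIs and a ratio of 0.199 (0.0910 to 0.518), Mafk 66 and 6 UMIs and 0.260 (0.113 to 0.735), Maff 172 and 11 UMIs and 0.370 (0.202 to 0.755), and Atf5 49 and 3 UMIs and 0.386 (0.125 to 1.94). Of 30 other immediate early genes, 26 passed, with 13 lower, 6 higher and a median log2 ratio of -0.42. Klf2, a transcription factor of the quiescent state in several cell types, was at 282 against 1166 CPM, a ratio of 0.241 (0.197 to 0.299). Cebpd, a transcription factor of the acute phase response, was at 35.4 against 171 CPM, a ratio of 0.207 (0.121 to 0.380). Sgk1, a kinase, went the other way at 538 against 103 CPM, a ratio of 5.23 (2.75 to 11.5). Plk2 had 226 UMIs against none in the uninjured library, and the exact interval of its ratio began at 1.44. The other early genes thus held members on both sides.

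Of the signalling genes upstream, 18 of 22 passed, with 4 higher and 6 lower and a median log2 ratio of 0.11. Map3k8, a MAP kinase kinase kinase, was at 70.3 against 240 CPM, a ratio of 0.293 (0.188 to 0.481). Elk4 had 83 and 7 UMIs and a ratio of 0.281 (0.130 to 0.719), and its partner Srf 32 and 3 UMIs and 0.252 (0.0790 to 1.29). Elk3, with 208 and 1 UMIs, had a ratio of 4.92 (0.874 to 195). Of 9 other MAP kinase phosphatases 5 passed, with 2 higher and 1 lower, a median of -0.17 and 1 to 8 uninjured UMIs each. Among them Dusp3 had a ratio of 3.18 (1.08 to 15.5), Dusp5 2.79 (0.491 to 111), Dusp2 0.766 (0.383 to 1.79) and Dusp16 0.292 (0.0924 to 1.48). Most of these intervals include 1.

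Relatives of Zfp36 and its decay partners had 0 higher and 5 lower of 8 that passed among 9, with a median log2 ratio of -0.79. Zfp36l1 was at 203 against 503 CPM, a ratio of 0.403 (0.297 to 0.559), Zfp36l2 at 137 against 274 CPM, a ratio of 0.501 (0.333 to 0.789). Cnot1 and Cnot7, subunits of the deadenylase complex that Zfp36 recruits, had ratios of 0.390 (0.192 to 0.923) and 0.302 (0.147 to 0.718). Messengers that Zfp36 is known to shorten had 3 higher and 6 lower of 10 that passed among 13, with a median of -0.77. The chemokine Ccl4 was at 443 against 4251 CPM, a ratio of 0.104 (0.0930 to 0.117), Il1a at 139 against 789 CPM, a ratio of 0.176 (0.137 to 0.230), and Ccl3 at 256 against 983 CPM, a ratio of 0.261 (0.209 to 0.329). Cxcl1 went the other way, with 756 and 2 UMIs and a ratio of 8.94 (2.47 to 74.0). In Malat1-poor cells the medians of the other AP-1 subunits, the other early genes and the Zfp36 targets were 0.77, 0.55 and 1.52, against 0.73 over all genes that passed, where many of these genes had few or no uninjured UMIs.

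Heat shock genes, induced with early genes by several stresses, had 2 higher and 6 lower of 11 that passed among 12, with a median log2 ratio of -0.63. Hspa1a was at 112 against 1074 CPM, a ratio of 0.104 (0.0833 to 0.132), and Hspa1b at 44.9 against 789 CPM, a ratio of 0.0569 (0.0427 to 0.0765). Dnajb1 had a ratio of 0.212 (0.128 to 0.373) and Hsp90aa1 0.421 (0.312 to 0.582). The low whole-library values of Hspa1a and Hspa1b came mainly from 1 class. Of their 94 and 69 uninjured UMIs, 89 and 66 lay in shallow Malat1-rich cells. Their deep-cell ratios were 0.978 (0.416 to 3.03) and 0.653 (0.220 to 3.20), from 5 and 3 uninjured UMIs. Ratios with a top cell left out are not given for listed genes. In Malat1-rich cells 8 of the 11 were lower and none higher, against 31.6% and 39.7% of all genes that passed. In deep cells 3 were lower and 2 higher, against 17.7% and 54.5%. Of the nuclear RNAs that passed, 3 of 5 listed, Malat1 had a ratio of 0.423 (0.405 to 0.442), Neat1 0.584 (0.427 to 0.819) and Kcnq1ot1 0.913 (0.385 to 2.84), with a median of -0.75. By kind of cell the directions differed. Neat1 was at 0.403 (0.259 to 0.665) in deep and 1.97 (1.26 to 3.23) in Malat1-rich cells. Malat1, which defines the shallow classes, was at 0.472 in deep, 0.816 in Malat1-rich and 1.82 (1.14 to 3.09) in Malat1-poor cells. The part of heat shock genes and nuclear RNAs in the levels of the 10 genes was not tested.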

How the data were processed

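Cells of digested optic nerve were captured with 10x Genomics 3' chemistry, version v2, per the labels' protocols. The submitters' processing notes name Cell Ranger 1.3, bcl2fastq 2.17.1.14 and Seurat 4.0.3 and the mm10 build. The sources used here give neither the annotation release, nor the strand setting, nor how macrophages and microglia were selected. The authors deposited a table of 778 cells that holds UMI counts as whole numbers, without normalization, and marks the condition of each cell. The stated limits of 200 and 6500 genes held for all cells, with 0 outside. Doublets were not removed, and no caller was run.

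Counts were summed over cells of a library or class and scaled to CPM. Levels carry exact Poisson and ratios exact conditional binomial 95% intervals, for counting error only. Shares carry exact Clopper-Pearson 95% intervals, which take cells or UMIs of 1 library as independent draws. Of 14428 genes with a UMI, the comparison took the 4021 with UMIs in 10% or more of the cells in either library. All 10 genes passed this filter. A pseudocount of 10 CPM was added before log2, which draws ratios of scarce genes toward 0. Rows with spreadsheet dates in place of names (26) counted toward totals but not as genes. No test was made, since each group is 1 library. Correlations are Spearman's rho over cells of log2(CPM + 1). The rule of size was tested on simulated data. Beside the 10 genes, the text names up to 4 genes of each of 8 lists with the largest absolute log2 ratio, and the 8 genes outside the set with the highest rho to its summed level in each of 2 kinds of cell. The genes, lists, class bounds and rules were chosen with earlier results of these data known. Alternatives were another weighting, thinning, other class bounds, pseudocounts, folds and scalings, and leaving out kinds of cell. Leaving out cells with under 3 macrophage marker UMIs, with 10 or more oligodendrocyte marker UMIs or with 5% or more mitochondrial UMIs was chosen after seeing the data, as were the counts of calls without 1 uninjured cell and the deep cells of at most 15000 UMIs. Python 3.11.15 was used with pandas 2.3.3, scipy 1.17.1, numpy 2.4.6 and, for figures, matplotlib 3.10.9.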

Additional observations from a re-analysis of the deposited data

Results flagged for a closer look

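The Fosb ratio, injured over uninjured, was 1.59 in shallow Malat1-rich cells and 0.355 in deep cells. It is listed here because the 2 kinds of cell gave opposite directions past the 1.5-fold rule. The difference between the 2 ratios was not tested, since each rests on 1 library per condition. The interval in Malat1-rich cells was 0.952 to 2.84 and that in deep cells 0.251 to 0.519, for counting error only. The uninjured values came from 16 UMIs in 5 Malat1-rich cells and 33 UMIs in 3 deep cells, of which 1 cell held 21. Without that cell the deep ratio was 0.717.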

How the results depend on the processing

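The summed ratio stayed below 1 in whole libraries and in each kind of cell in every setting tried, although the interval included 1 in 4 settings for deep cells. In whole libraries it was 0.397 with each cell weighted equally, 0.406 after thinning to 500 UMIs, 0.480 without cells under 3 macrophage marker UMIs, 0.492 without the haemoglobin cell, 0.504 without cells over 15000 UMIs and 0.625 without the uninjured cell with most UMIs of the set. In deep cells it was 0.467 without the haemoglobin cell, 0.467 without cells under 3 macrophage marker UMIs, 0.705 (0.469 to 1.11) thinned to 500 UMIs, 0.919 (0.833 to 1.02) without cells over 15000 UMIs, 0.962 (0.848 to 1.09) with deep cells from 8000 UMIs and 0.978 (0.863 to 1.11) without the uninjured cell with most UMIs of the set. In Malat1-rich cells it was 0.290 with equal weights, 0.358 without cells of 5% or more mitochondrial UMIs, 0.366 without the top uninjured cell, 0.367 with the divide at 2% and 0.410 with deep cells from 8000 UMIs. In Malat1-poor cells it was 0.503 with mitochondrial and ribosomal protein genes out of the totals and 0.378 with the divide at 2%. The median pairwise rho in deep injured cells was 0.34 as Pearson's r, 0.36 thinned to 5000 UMIs and 0.52 without cells over 15000 UMIs. The number of genes called lower in whole libraries was 4 by a 2-fold rule, 5 without the uninjured cell with most UMIs of the set, 4 with each gene's own top uninjured cell left out and 6 in the other settings. The 6 were not always the same genes, since Ier2 took the place of Fosb in 2 settings. With equal weights Fosb stood at 247 against 331 CPM and Ier2 at 269 against 444 CPM. Thinned to 500 UMIs, Ier2 had 0.139 against 0.306 UMIs per cell. Among genes called by the rule, the direction turned for Fosb in whole libraries thinned to 500 UMIs (1.47), Jun in deep cells thinned to 500 UMIs (1.72, interval 0.298 to 69.1) or without cells over 15000 UMIs (1.03) and Egr1 in deep cells without the top uninjured cell (6.91) or with deep cells from 8000 UMIs (6.86), the last 2 against 1 uninjured UMI. Ratios of uncalled genes that crossed 1 without the gene's top uninjured cell were, in whole libraries, Fos (1.27), Atf3 (1.64) and Ier2 (1.02), in deep cells Junb (1.32) and Atf3 (4.91), and in Malat1-poor cells Fos (1.38) and Dusp1 (1.09). Of the other values for single genes and classes, 306 stayed within counting error of the value given and 67 moved further. Without the filter on scarce genes, 21.5% of 14407 genes were called lower. The cause of these shifts was not tested. Depth limits precision, since 4 deep, 17 Malat1-rich and 30 Malat1-poor cells stand behind the uninjured values. No paired analysis was possible because each condition has 1 library.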
